A study of Caenorhabditis elegans with 43 samples.

Results

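The 6 genes described here are the catalases *ctl-1*, *ctl-2* and *ctl-3* and the peroxiredoxins *prdx-2*, *prdx-3* and *prdx-6* of *C. elegans*. They were picked by gene name from the 13837 genes of the normalized expression table, and all 6 were present in it. Transcript levels came from RNA-seq of whole prefertile young adult worms, in 43 libraries of 8 genotypes sequenced in 3 batches. The study asked how mutation of the mitochondrial subunit gene *nuo-6* and the mitochondrial unfolded protein response, which the transcription factor ATFS-1 switches on, change gene expression and stress resistance.

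Batch 1 held 3 wild-type (N2), 3 *atfs-1* deletion, 3 *hif-1(ia4)*, 2 *nuo-6;hif-1*, 6 *atfs-1(et17)* and 5 *atfs-1(et15)* libraries. Batch 2 held 6 wild-type and 6 *nuo-6(qm200)* libraries, and batch 3 held 3 wild-type, 3 *atfs-1* deletion and 3 libraries whose labels carry the code NA238. NA238 was read as the *nuo-6(qm200);atfs-1(gk3094)* double mutant from its letters and from the isolates the study lists for that strain, and both *atfs-1* labels were read as the allele *gk3094*, since the study lists no other deletion of that gene. Every statement on the deletion in a *nuo-6* background rests on that reading. The *et15* and *et17* alleles change the mitochondrial targeting sequence of ATFS-1 and make it constitutively active. All worms were grown on agar plates at 20 °C with live OP50 bacteria, no group was exposed to a stress, and whole worms mix all tissues, so that more cells of a type and more RNA per cell cannot be told apart.

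Hydrogen peroxide is made when superoxide dismutases act on the superoxide that leaks from the respiratory chain, and also by oxidases in the peroxisome. Catalases break it down to water and oxygen without a reducing partner. Peroxiredoxins reduce it with a reactive cysteine, which thioredoxin and thioredoxin reductase then regenerate. In *C. elegans*, CTL-2 is the peroxisomal catalase and CTL-1 a catalase of the cytosol, PRDX-2 is an abundant cytosolic peroxiredoxin, PRDX-3 is the mitochondrial peroxiredoxin that works with thioredoxin TRX-2 and its reductase TRXR-2, and PRDX-6 is the relative of the mammalian enzyme of the same name. ATFS-1 is imported into healthy mitochondria and degraded there, and enters the nucleus when import is impaired.

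The 3 catalase genes lie side by side on the minus strand of chromosome II in WBcel235. *ctl-2* (WBGene00000831) spans 14299556 to 14302027, *ctl-1* (WBGene00000830) spans 14303568 to 14306260 and *ctl-3* (WBGene00013220) spans 14307798 to 14310779. No other annotated gene starts within these 11224 bases, although the end of *ctl-2* overlaps *Y54G11A.7* on the other strand. The peroxiredoxins are single genes elsewhere, all on the plus strand. *prdx-2* (WBGene00006434) is on chromosome II from 5378195 to 5379631, *prdx-3* (WBGene00011110) on chromosome III from 4407444 to 4408437 and *prdx-6* (WBGene00021401) on chromosome IV from 218552 to 220855. Levels below are normalized CPM (read counts scaled by library size, then by a constant per library) over all exons of a gene.

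Between 21466920 and 48493377 reads per library were counted on genes (median 35067190). The deposited levels of the mutated genes were compared with the labels. *hif-1* was at 18.5 to 32.3 normalized CPM in *hif-1* worms, at 35.0 and 43.4 in *nuo-6;hif-1* and at 140 to 286 in wild-type libraries. *atfs-1* was at 24.5 to 30.3 in the 6 deletion libraries, at 25.6 to 29.2 in NA238 and at 55.3 to 89.8 in wild-type libraries. The *qm200* allele leaves *nuo-6* transcripts in place, so the *nuo-6* level checks nothing. Some libraries stood apart. The body wall muscle genes *myo-3*, *unc-54* and *unc-15* summed to 1893 to 4001 in the wild-type libraries of batch 3 and to 8242 to 13417 in those of batches 1 and 2, and the batch 1 deletion libraries (2288 to 5290) lay near batch 3. Replicates 2 and 3 of the batch 1 deletion were also more like deletion replicates bl and r of batch 3 than any of the other 901 pairs of libraries were like each other, with count differences of 9.11 and 9.22 times the counting variance against 21.9 to 329 within the study's own groups. They differ beyond counting error and were kept as separate samples, but whether they share worms or RNA is not known, and the 6 deletion libraries may hold fewer than 6 independent samples. Transcripts of stage marker lists were also unequal. The yolk protein genes *vit-1* to *vit-6* summed to 1674 to 14384 in *atfs-1(et15)*, to 2005 and 8199 in *nuo-6;hif-1* and to 27022 to 76683 in wild-type worms of batch 1. Genes of the molting list summed to 1058 to 4026 in *atfs-1(et15)*, to 2471 and 2619 in *nuo-6;hif-1* and to 84.0 to 646 in those wild-type worms. Labels number separate samples but not separate cultures. In the fit of all 43 libraries, p-values rest on 1 spread per gene between samples of a group, shared by all groups and not only those compared.

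In wild-type worms the peroxiredoxins *prdx-2* and *prdx-3* far outweighed the catalases. Per kilobase of exon, *prdx-2* averaged 679 normalized CPM (SD 107, n = 12), *prdx-3* averaged 169 (SD 13.3), *ctl-2* averaged 41.6 (SD 10.3), *prdx-6* averaged 37.7 (SD 5.17), *ctl-3* averaged 2.60 (SD 0.730) and *ctl-1* averaged 1.16 (SD 0.360). *prdx-2* was 4.01 times as high as *prdx-3*, and *prdx-3* was 4.07 times as high as *ctl-2*. The order held in 12 of 12 libraries for every pair of neighbours except *ctl-2* and *prdx-6*. These did not separate, since *ctl-2* was the higher in 8 of 12 libraries and their ranges, 27.0 to 57.3 and 29.1 to 47.1, overlap. *ctl-2* made up 82.4% to 94.6% of the summed catalase level in every library. *ctl-1* was counted with only 35 to 71 reads per wild-type library, against 1625 to 2774 for *ctl-2*, so its values carry more counting error.

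The wild-type levels of *ctl-1* and *ctl-2* differed between batches. *ctl-1* was at 1.21, 0.888 and 1.07 normalized CPM in the wild-type libraries of batch 3 and at 1.81 to 2.70 (median 2.07) in those of batch 2, a log2 difference of -0.78 (SE 0.26, adjusted p = 0.0153 from limma). *ctl-2* was at 48.1, 44.8 and 43.5 against 64.6 to 92.3 (median 74.8), a difference of -0.77 (SE 0.25, adjusted p = 0.0128 from limma). Neither pair of groups overlapped, and 45% of all genes were called between these wild-type groups. Each mutant was set against the wild-type libraries of its own batch, a rule fixed beforehand.

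*ctl-1* was not detected in *atfs-1(et15)*. The 5 *et15* libraries held 0 *ctl-1* reads in 165591601 reads counted on genes, while each of the other 38 libraries held at least 30. Wild-type worms of the same batch had 2.05, 1.797 and 1.47 normalized CPM and *atfs-1(et17)* worms had 1.95 to 3.82 (median 2.44, n = 6). Set at 3 reads over the 5 libraries, the upper limit that a count of 0 allows, the level in *et15* was at most 0.0173 normalized CPM, at least 103-fold lower than in wild-type worms, and this limit covers counting error only. limma called the gene lower (adjusted p = 1.16e-07 against wild-type and 9.52e-11 against *et17*), with fitted log2 differences of -2.18 and -2.61 that depend on the added 0.5 CPM. All 46739 genes, before filtering, were searched in the 11 groups. Only *ctl-1* in *et15* and *F42G4.6* in *hif-1* had no read in any library of a group and at least 20 reads in every library outside it (*F42G4.6* is named here because it shared this pattern). *atfs-1(et17)*, the other strain with constitutively active ATFS-1, had 69 to 147 *ctl-1* reads in each library.

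**Figure D1:**
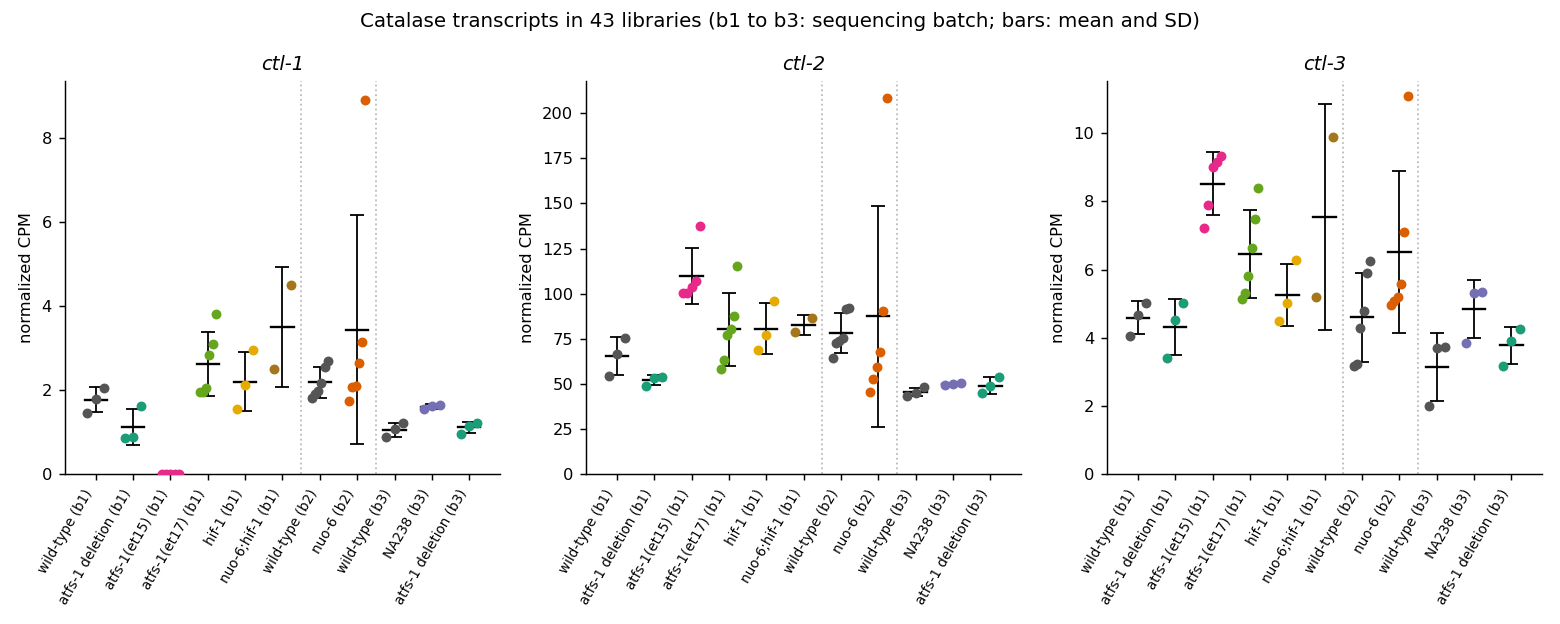
Normalized CPM (linear axis from 0) of the 3 catalases in all 43 libraries, 1 point a library, grouped by genotype and sequencing batch, with the mean and SD of each group as lines. All 5 *atfs-1(et15)* libraries sit at 0 for *ctl-1* and at 100 to 137 for *ctl-2*, and a single *nuo-6* library, replicate 2, is the highest of its group for all 3 genes.

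The genes on both sides of *ctl-1* were higher in *atfs-1(et15)* than in wild-type worms. *ctl-2* was at 100, 107, 103, 137 and 101 normalized CPM in *et15* and at 66.4, 75.5 and 54.3 in wild-type worms of batch 1, with no overlap. It rose by a log2 fold change of 0.75 (SE 0.26, adjusted p = 0.0258 from limma). *ctl-3* was at 9.15, 9.01, 9.34, 7.90 and 7.21 against 4.67, 5.04 and 4.07, again with no overlap, and rose by 0.82 (SE 0.23, adjusted p = 0.00601 from limma). Of the next 3 tested genes to the left of the cluster in map order, *Y54G11A.7* and *Y54G11A.4* also rose (1.43 and 1.51 on the log2 scale) and *Y54G11A.3* fell by 0.56. To the right, *Y54G11A.14* and *ddl-3* rose (1.00 and 0.41), and *Y54G11A.9* was at 10.6 to 14.1 normalized CPM against 7.65 to 10.6 (log2 difference 0.37, adjusted p = 0.138). These neighbours were named because of their position, after the values of *ctl-1* had been seen. Across all genes 33.3% were called in *et15*, so that calls at neighbours are common there.

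Yolk genes were lower (6 of 6 called) and molting genes higher (8 of 8 called) in the same *et15* libraries, beside 33.3% of all genes. The summed sperm genes (520 to 1801 against 1523 to 2398 in wild-type worms of batch 1) and oocyte genes (471 to 3494 against 2830 to 6083) overlapped. With an index of such stage genes as a covariate, the limma difference of *ctl-2* was 0.37 (adjusted p = 0.498) and that of *ctl-3* was 0.85 (adjusted p = 0.0497). That of *ctl-1* remained called. The index ran from -14.3 to -3.05 in *et15* and from 0.197 to 10.4 in wild-type worms of batch 1. Without overlap between the groups, a fit with this index cannot tell stage from genotype. The call on *ctl-2* was also lost without *et15* replicate 5, which had the highest value (adjusted p = 0.0575), or without wild-type replicate 1 or 3 (0.0689 and 0.153). In *atfs-1(et17)*, *ctl-2* was at 58.6 to 115 (median 78.8) and *ctl-3* at 5.15 to 8.40 (median 6.23), and limma called neither (log2 differences 0.27 and 0.44, adjusted p = 0.724 and 0.377). The levels of these 2 genes did not separate the strains either (*et15* minus *et17* 0.47 and 0.39, adjusted p = 0.136 and 0.164 from limma).

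In *nuo-6* worms no catalase was called by limma. *ctl-3* came nearest, at 4.97 to 11.1 normalized CPM (median 5.39) against 3.18 to 6.26 (median 4.53) in wild-type worms of batch 2. The groups overlapped and the log2 difference was 0.44 (SE 0.18, adjusted p = 0.0506), a value that edgeR and DESeq2 placed on the other side of the threshold (adjusted p = 0.0372 and 0.0407). *ctl-1* was at 1.74 to 8.91 (median 2.38) with a difference of 0.36 (adjusted p = 0.177). *ctl-2* was at 45.6 to 209 (median 63.6) with a difference of -0.05 (adjusted p = 0.881).

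The highest of all 3 values belonged to *nuo-6* replicate 2. That library had 8.91 normalized CPM of *ctl-1*, 209 of *ctl-2* and 11.1 of *ctl-3*, while the other 5 *nuo-6* libraries reached at most 3.15, 90.6 and 7.11. It also had the lowest yolk sum of its group, 8630 against 55675 to 92192, the lowest sum of the 4 intestine genes (803 against 1114 to 2089) and the highest molting sum (1030 against 148 to 883), and the part of these in its catalase levels was not tested. Without it the differences were 0.07 for *ctl-1*, -0.34 for *ctl-2* and 0.28 for *ctl-3* (adjusted p = 0.754, 0.0607 and 0.19 from limma).

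**Figure D2:**
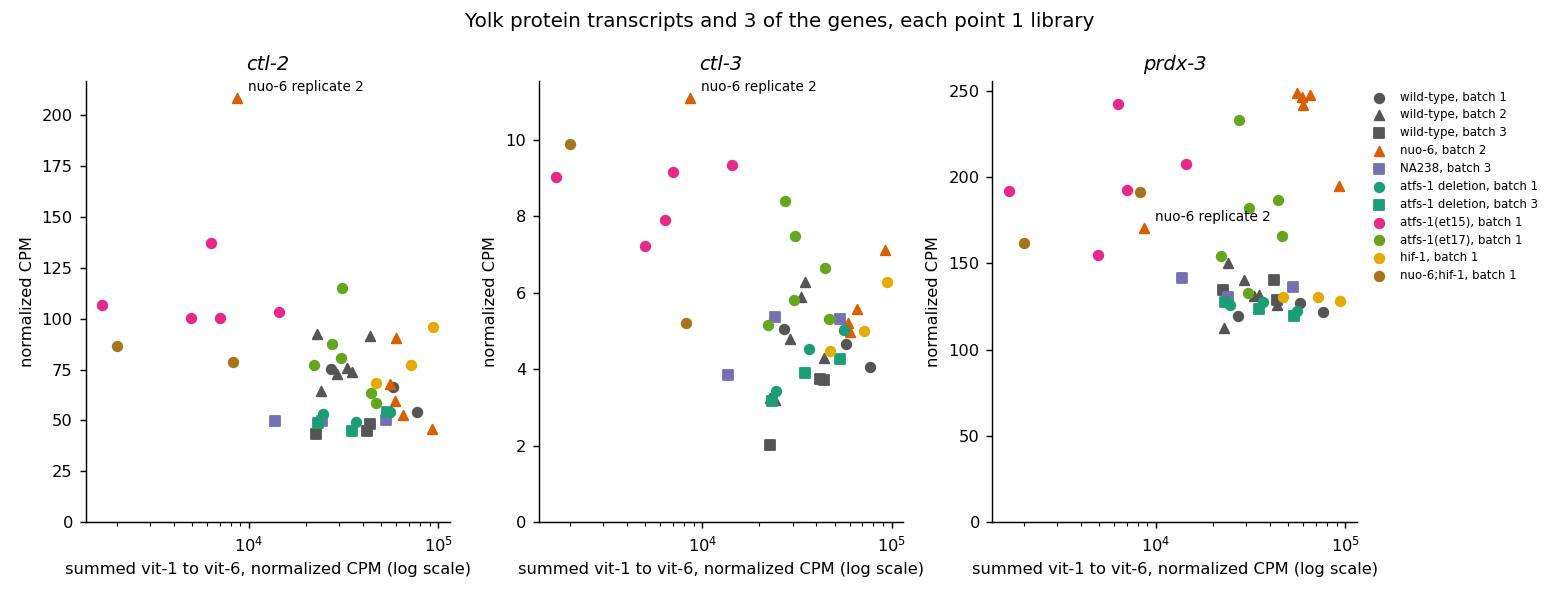
Normalized CPM of *ctl-2*, *ctl-3* and *prdx-3* (linear axes from 0) against the summed level of the 6 yolk protein genes (log axis), 1 point a library, with color for genotype and marker shape for batch. The *atfs-1(et15)* and *nuo-6;hif-1* libraries, *nuo-6* replicate 2 and NA238 replicate r lie at the left, with yolk sums of at most 14384, while the other *nuo-6* libraries combine yolk sums of at least 55675 with *prdx-3* levels of 195 or more.

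The double mutants gave no firm change of a catalase. In *nuo-6;hif-1*, *ctl-1* was at 4.51 and 2.501 against 2.05, 1.797 and 1.47 in wild-type worms, and limma called it (log2 fold change 0.78, SE 0.34, adjusted p = 0.0491). The call was lost with edgeR (adjusted p = 0.0612), with DESeq2 (0.0716), with the stage index (log2 difference 0.13, adjusted p = 0.894), and without replicate 2 (0.41, adjusted p = 0.436, with the spread of the lone library borrowed from other groups). The stage index was -13.7 and -9.94 in *nuo-6;hif-1* and 0.197 to 10.4 in these wild-type worms. The groups did not overlap on it, so a fit with the index cannot tell stage from genotype here. *ctl-3* was at 9.88 and 5.21 in this strain (log2 difference 0.60, adjusted p = 0.0721) and *ctl-2* at 86.5 and 78.6 (0.34, adjusted p = 0.372). In NA238, *ctl-3* was at 5.31, 5.35 and 3.85 against 3.71, 3.73 and 2.01 in wild-type worms of batch 3, a difference of 0.58 (SE 0.26, adjusted p = 0.117) in which all NA238 libraries lay above. *ctl-1* was at 1.63, 1.54 and 1.65 and *ctl-2* at 50.4, 49.7 and 49.8, with differences of 0.44 and 0.14 (adjusted p = 0.32 and 0.774). For both genes all NA238 libraries lay above these wild-type worms as well. In *hif-1* worms the 3 catalases differed from wild-type by 0.17 to 0.30 on the log2 scale, with adjusted p-values of 1.

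*prdx-3*, the mitochondrial peroxiredoxin, was the member that rose in the most genotypes. *nuo-6* libraries had 170 to 249 normalized CPM (median 244) and wild-type libraries of batch 2 had 113 to 150 (median 131). The groups did not overlap, and *prdx-3* rose by a log2 fold change of 0.76 (SE 0.11, 95% interval 0.54 to 0.97, adjusted p = 4.91e-07 from limma), or 1.69-fold. Replicate 2 was again apart from the rest, here as the lowest. Without it the difference was 0.83. In this comparison 40.3% of all genes and 2 of the 6 were called. The germline genes *pgl-1*, *pgl-3*, *glh-1* and *glh-4* were lower in the same libraries, with sums of 515 to 841 against 1089 to 1538 normalized CPM and no overlap. Their sum was also 768 to 1161 in *atfs-1(et15)* and 588 and 628 in *nuo-6;hif-1*, against 1262 to 1519 in wild-type worms of batch 1, and 1156 to 1351 in *atfs-1(et17)*. The part of this in the *prdx-3* levels was not tested, and in NA238 the sum was 730 to 1105 against 1087 to 1491 in wild-type worms of batch 3.

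Worms with constitutively active ATFS-1 and an intact *nuo-6* also had more *prdx-3*. *atfs-1(et15)* libraries were at 193, 192, 208, 242 and 155 normalized CPM and wild-type libraries of batch 1 at 127, 120 and 122. All 5 lay above the wild-type range, and the rise was 0.67 (SE 0.13, adjusted p = 0.000259 from limma). *atfs-1(et17)* libraries were at 133 to 233 (median 174, n = 6), also all above, with a rise of 0.49 (SE 0.13, adjusted p = 0.0191 from limma). Among all genes 4.09% were called in *et17*, and *prdx-3* was the only one of the 6. The *et17* call was less secure, as it was lost without any 1 of the 3 wild-type libraries or without *et17* replicate 1 (adjusted p = 0.0532 to 0.0923, log2 differences 0.41 to 0.52), and in a fit of the 2 groups alone (adjusted p = 0.178). The *et15* rise was larger with the stage index as a covariate (0.90, adjusted p = 0.000149), though the index did not overlap between *et15* and wild-type worms. The 2 alleles differed by 0.18 (95% interval -0.05 to 0.41, adjusted p = 0.277), and 11.4% of all genes were called between them.

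**Figure D3:**
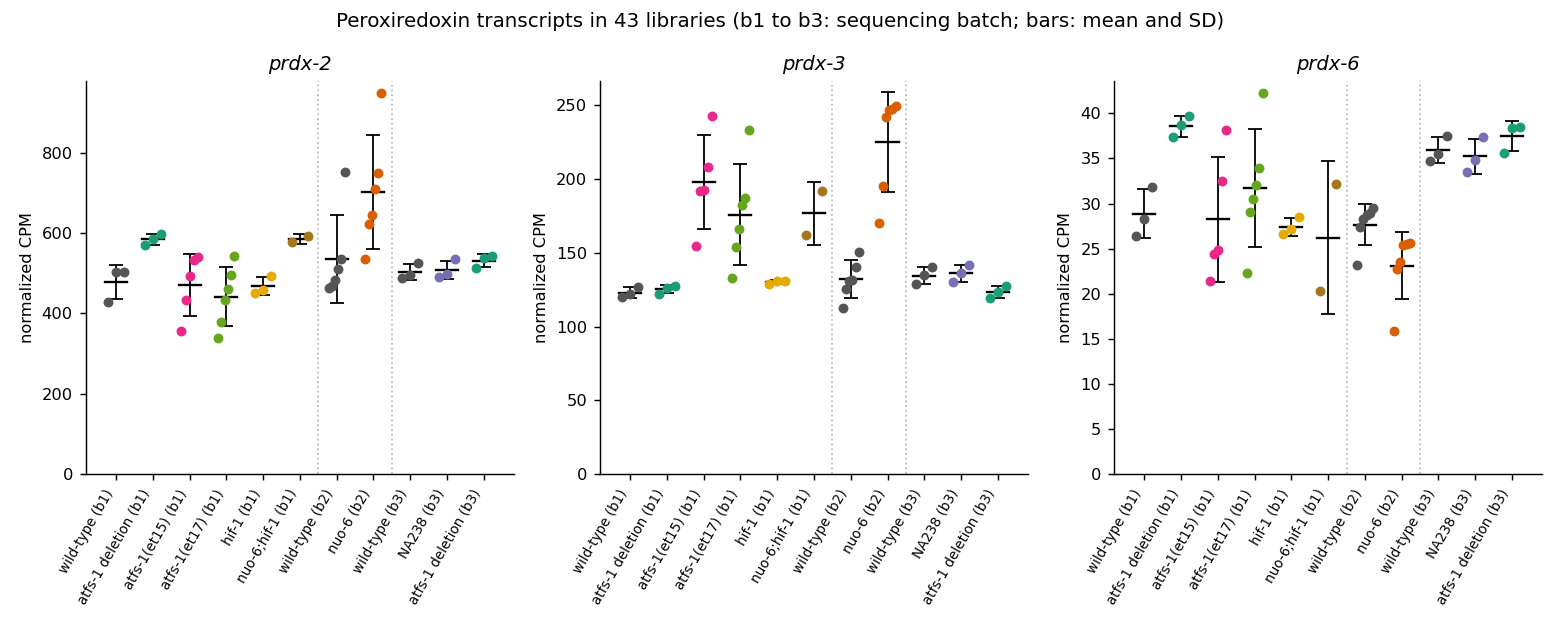
Normalized CPM (linear axis from 0) of the 3 peroxiredoxins in all 43 libraries, 1 point a library, grouped by genotype and sequencing batch, with the mean and SD of each group as lines. For *prdx-3* the *nuo-6*, *atfs-1(et15)*, *atfs-1(et17)* and *nuo-6;hif-1* libraries lie above the wild-type libraries of their batch, and the NA238 libraries lie among theirs.

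In NA238, *prdx-3* was at the wild-type level. The 3 libraries had 136, 130 and 141 normalized CPM, wild-type libraries of batch 3 had 129, 140 and 135, and *atfs-1* deletion libraries of that batch had 119.2, 123 and 128. The difference from wild-type was 0.02 (95% interval -0.29 to 0.32, adjusted p = 0.953 from limma), and the difference from the deletion was 0.14 (-0.17 to 0.44, adjusted p = 0.566). The effect in NA238 was lower than that in *nuo-6*, each against its own wild-type worms, by -0.74 on the log2 scale (SE 0.18, adjusted p = 0.00764 from limma). *prdx-3* was the only member called in that test, where 9.56% of all genes were. With the deletion as the reference, the effect of *nuo-6* in the deletion background minus that in the wild-type background was -0.62 (SE 0.18, adjusted p = 0.0278 from limma), again the only member called against 9.34% of all genes. *nuo-6* and NA238 were sequenced in different batches, so these tests pass through the wild-type libraries of each.

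Both tests lost the call when library size was the only scaling (-0.53 and -0.37, adjusted p = 0.0507 and 0.187), a scaling that moved the median of all genes by 0.21 and 0.24 in these comparisons and the share of higher calls from 41.6% to 72.9% and from 38.7% to 73.1%. The second test was also lost without NA238 replicate b or bl or without deletion replicate bl or r (adjusted p = 0.0542 to 0.0808).

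Loss of *hif-1* left a rise of *prdx-3* in the *nuo-6* background. *nuo-6;hif-1* libraries had 162 and 191 normalized CPM, *hif-1* libraries had 128, 131 and 131, and the wild-type libraries of the batch were below both double mutant values. The rise was 0.52 against wild-type (SE 0.17, adjusted p = 0.00984 from limma) and 0.43 against *hif-1* (SE 0.17, adjusted p = 0.0295). Both calls were lost when only the groups compared were fitted (adjusted p = 0.0824 and 0.121) and without *nuo-6;hif-1* replicate 3 (0.40 and 0.31, adjusted p = 0.12 and 0.227), and the call against *hif-1* also without *hif-1* replicate 1 or 2 (0.0665 and 0.0538) and with DESeq2 (0.055). Of all genes 56% were called against wild-type and 51.9% against *hif-1*, beside the yolk and molting levels given above. The effect of *nuo-6* in the *hif-1* background differed from that in the wild-type background by -0.32 (95% interval -0.73 to 0.08, adjusted p = 0.221), and the *nuo-6;hif-1* and *nuo-6* effects differed by -0.24 (-0.65 to 0.16, adjusted p = 0.374). limma called none of the 6 genes in either of those tests, at unadjusted p under 0.05 none as well, and edgeR and DESeq2 none, where 29.7% and 29.5% of all genes were called.

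*prdx-2*, the most abundant of the 6, was called only in *nuo-6* among the 7 comparisons with wild-type worms. *nuo-6* libraries were at 534 to 947 normalized CPM (median 678) and wild-type libraries of batch 2 at 464 to 753 (median 496), with overlapping ranges. The rise was 0.39 (SE 0.12, adjusted p = 0.0104 from limma), or 1.31-fold, and it was lost in a fit of the 2 groups alone (adjusted p = 0.0675). Wild-type replicate 7 was the highest of its group at 753, and the other 5 wild-type libraries reached at most 536, just above the lowest *nuo-6* library. NA238 libraries were at 491 to 534 against 489 to 525 (log2 difference 0.01, 95% interval -0.34 to 0.36), but the difference of the 2 effects was not called (-0.37, SE 0.21, adjusted p = 0.284). In *atfs-1(et15)* and *atfs-1(et17)* the values were 357 to 540 and 340 to 542 (differences -0.03 and -0.13, adjusted p = 0.885 and 0.808).

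*prdx-6* was not called by limma in any comparison of the fit of all libraries. In *nuo-6* it was at 15.9 to 25.6 (median 24.5) against 23.2 to 29.5 (median 28.5), a difference of -0.27 (SE 0.13, adjusted p = 0.0969 from limma) that passed the threshold with library size as the only scaling (-0.35, adjusted p = 0.0438) and with the stage index (-0.33, adjusted p = 0.0192). Among the deletion libraries, those of batch 1 were at 37.4, 38.7 and 39.7 against 31.9, 26.5 and 28.3 in wild-type worms, all above (0.42, adjusted p = 0.0787), and those of batch 3 were at 35.6, 38.5 and 38.4 against 34.7, 37.5 and 35.5 (0.06, adjusted p = 1). The wild-type libraries of batch 3 were themselves above every wild-type library of the other batches (31.9 at most), and the batch 1 deletion libraries are those that resembled batch 3.

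**Figure D4:**
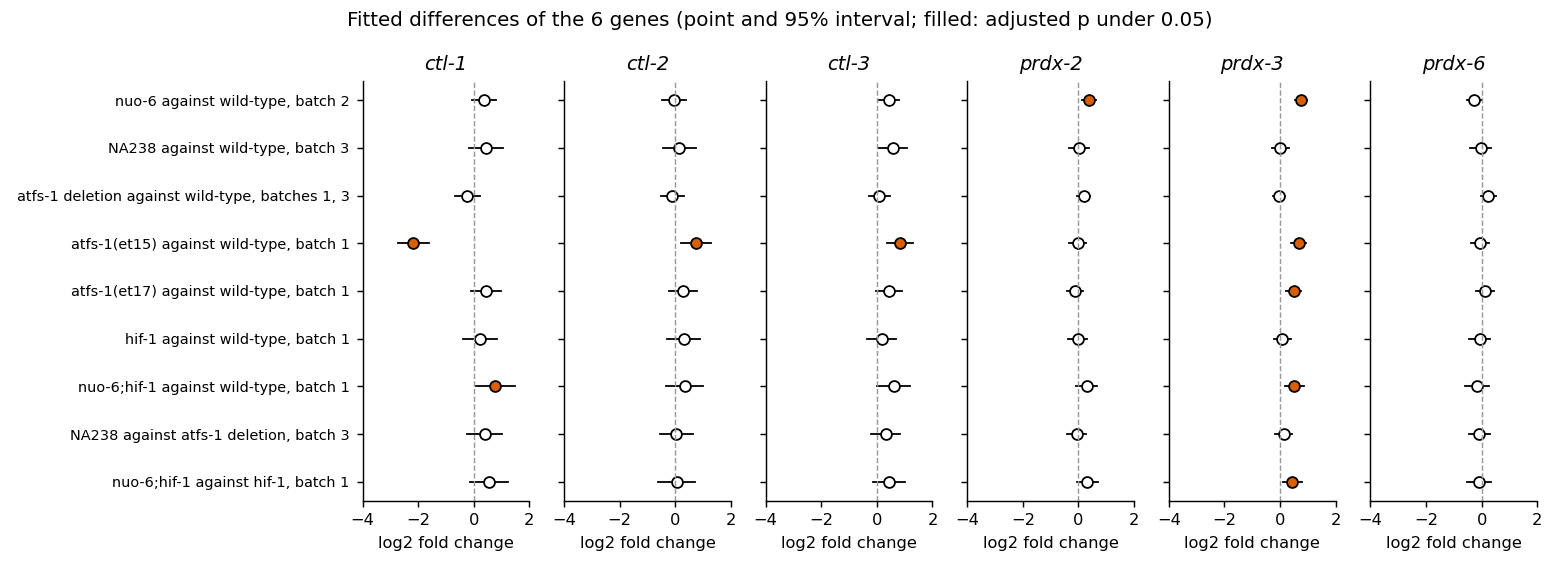
Fitted log2 fold changes with 95% intervals of the 6 genes in 9 comparisons, with filled points where the limma adjusted p was under 0.05. *prdx-3* is filled in 5 comparisons and lies at 0.02 in NA238 against wild-type, and the *ctl-1* value in *atfs-1(et15)* (-2.18) depends on the added 0.5 CPM because no read was counted there.

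The *atfs-1* deletion on its own changed none of the 6 genes by the test used. Averaged over batches 1 and 3, the log2 differences from wild-type ran from -0.22 for *ctl-1* to 0.24 for *prdx-6*, and limma, edgeR and DESeq2 called none, nor was any unadjusted limma p under 0.05. In a fit of these groups alone, *prdx-2* (0.19, adjusted p = 0.0379) and *prdx-6* (0.24, adjusted p = 0.0209) passed. The background was 12.3% of all genes for the mean of both batches, 31.8% for batch 1 alone and 0.188% for batch 3 alone. Because the batch 1 deletion libraries resembled batch 3, the mean and the batch 1 comparison may hold a batch difference beside the genotype. The 6 deletion libraries may also hold fewer than 6 independent samples. No member was called in either batch, and none differed between them, where 1.19% of all genes did. NA238 against wild-type called none of the 6 with limma, edgeR or DESeq2 and 1 (*ctl-3*) at unadjusted p under 0.05, beside 17.2% of all genes, and NA238 against the deletion called none by any of these, beside 14.3%. *hif-1* against wild-type likewise called none of the 6 by any of them, beside 0.52%.

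Counted over the 7 comparisons with wild-type worms, *prdx-3* was called higher in 4, *ctl-1* higher in 1 and lower in 1, *ctl-2*, *ctl-3* and *prdx-2* higher in 1 each and *prdx-6* in none. For *et15* the 4 members called (*ctl-1*, *ctl-2*, *ctl-3* and *prdx-3*) stand beside the 33.3% of all genes, and in *nuo-6;hif-1* 2 members (*ctl-1* and *prdx-3*) beside 56%. The batch 1 comparisons share 3 wild-type libraries, and those of batch 3 share another 3, so that their calls are not independent of each other.

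Other genes of hydrogen peroxide metabolism were read from 7 lists, with 48 genes tested, of which 18 were called in *nuo-6* and 4 in NA238, beside 40.3% and 17.2% of all genes. Neither count exceeds its background. With each library left out in turn (an alternative chosen after seeing the data), 7 of the 18 calls and 3 of the 4 were lost without at least 1 library. The mitochondrial partners of *prdx-3* were among them. *trx-2*, the mitochondrial thioredoxin, was at 44.0 to 76.2 normalized CPM in *nuo-6* (median 60.8) against 28.1 to 33.1 in wild-type worms of batch 2, a rise of 0.93 (SE 0.11, adjusted p = 1.43e-08 from limma) without overlap. NA238 libraries had 34.1 to 45.8 against 42.8 to 51.9 in wild-type worms of batch 3, and the effects differed by -1.22 (adjusted p = 2.88e-05). The wild-type mean of *trx-2* itself was 31.3 in batch 2 and 47.4 in batch 3, and this shift enters the difference of effects. Deletion worms of batch 3 averaged 42.5 and NA238 averaged 39.0. *trxr-2*, the mitochondrial thioredoxin reductase, was at 21.7 to 29.8 in *nuo-6* against a median of 10.5, a rise of 1.26 (SE 0.12, adjusted p = 9.53e-11). It rose in NA238 as well, to 22.5 to 25.6 against 13.9 to 16.9 (0.59, SE 0.17, adjusted p = 0.0111), by less than in *nuo-6* (-0.66, adjusted p = 0.0317). The wild-type mean of *trxr-2* was also higher in batch 3 (15.7) than in batch 2 (10.9). The call in NA238 was lost without NA238 replicate r or wild-type replicate b (adjusted p = 0.0536 and 0.0638). Like *prdx-3*, both partners rose in *nuo-6;hif-1* (1.07 and 1.22), *atfs-1(et17)* (0.84 and 0.68) and *atfs-1(et15)* (1.14 and 0.94). The median log2 difference of the 6 tested thioredoxin and reductase genes in *nuo-6* was 0.26, beside -0.03 for all genes.

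Enzymes that make or remove hydrogen peroxide outside this system were called in both directions. Of the 5 superoxide dismutases, 4 rose in *nuo-6*, where 40.3% of all genes were called, and the list's median was 0.84. *sod-3*, a mitochondrial manganese superoxide dismutase, rose by 3.21 (SE 0.20, adjusted p = 1.68e-15), from 2.81 to 4.59 normalized CPM in wild-type worms of batch 2 to 27.5 to 50.8, while *sod-2*, *sod-4* and *sod-5* rose by 0.36, 0.84 and 1.10. In NA238, *sod-3* was at 2.43 to 3.20 against 2.07 to 2.59, and its effect was lower than in *nuo-6* by -3.001 (adjusted p = 8.43e-08). Of 7 glutathione peroxidases, *gpx-6*, *gpx-7* and *gpx-8* rose in *nuo-6* (1.18, 0.48 and 2.40), a share near the background, and in NA238 *gpx-8* rose (1.08) and *gpx-1* fell by 0.53. The *nuo-6* and wild-type ranges of *sod-2* overlapped (77.0 to 130 against 71.3 to 91.7 normalized CPM). So did those of *sod-4*, *sod-5* and *gpx-7*. Their calls were lost without *nuo-6* replicate 3 or wild-type replicate 4 (*sod-4*, adjusted p = 0.0737 and 0.0609), without *nuo-6* replicate 1, 2 or 3 or wild-type replicate 5 (*sod-5*, 0.0539 to 0.0595), and without *nuo-6* replicate 4, 5 or 6 or wild-type replicate 4, 5 or 9 (*gpx-7*, 0.0546 to 0.0851). The *gpx-1* call in NA238 was lost without NA238 replicate b or bl or wild-type replicate r (0.0586 to 0.0919). *gpx-1* averaged 16.6 in NA238, 24.2 in wild-type worms of batch 3 and 16.1 and 15.8 in those of batches 1 and 2. *gpx-8* also rose in *atfs-1(et15)* and *atfs-1(et17)* (2.86 and 2.78).

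Of the genes that build the peroxisome, where CTL-2 acts, 5 of 11 rose in *nuo-6*, near the 40.3% of all genes called there, and the list's median was 0.20. They were *prx-19* (0.83), *prx-2* (0.53), *prx-13* (0.43), *prx-6* (0.42) and *prx-5* (0.32), the last being the receptor that carries enzymes such as catalase into the organelle. The groups overlapped narrowly for *prx-13* (9.11 to 15.2 normalized CPM in *nuo-6* against 7.08 to 9.12). They also overlapped for *prx-5* and *prx-6*, whose calls were lost without *nuo-6* replicate 2 or wild-type replicate 4 (adjusted p = 0.0575 to 0.0907 and 0.0608 to 0.0693). That on *prx-6* was also lost without *nuo-6* replicate 6 or wild-type replicate 8 or 9 (0.0569 to 0.0686). In NA238, *prx-3* fell by 0.81, a call lost without NA238 replicate b or bl or wild-type replicate r (0.0504 to 0.0825), and the other 10 were not called. *prx-3* averaged 8.48 in NA238, 9.41 in the deletion of batch 3 and 15.3 in wild-type worms of that batch. Wild-type worms of batches 1 and 2 averaged 12.1 and 12.5. Of the 7 acyl-CoA oxidases, which release hydrogen peroxide in the peroxisome, 2 were called in *nuo-6*, below the background share, where *acox-1.2* fell by 1.45 and *acox-1.3* fell by 0.96. The *nuo-6* and wild-type ranges overlapped for *acox-1.2* (9.08 to 28.7 against 21.7 to 143 normalized CPM) and *acox-1.3* (1.85 to 8.40 against 5.21 to 14.7). Among 6 regulators, *skn-1*, a transcription factor of oxidative stress genes, and its repressor *wdr-23* were called higher in *nuo-6* (0.51 and 0.36). These calls turned on *nuo-6* replicate 3. *skn-1* was at 144 to 609 normalized CPM in *nuo-6* (median 245) against 144 to 195, with overlap, and without that library the differences were 0.24 (adjusted p = 0.221) and 0.28 (adjusted p = 0.0618). The *skn-1* call was also lost without *nuo-6* replicate 1, 4 or 5 or wild-type replicate 4, 5, 7, 8 or 9 (adjusted p = 0.0509 to 0.0876). The dual oxidase and heme peroxidase list had 6 tested members, and limma called none of them in *nuo-6* or NA238, with 0 at an unadjusted p under 0.05.

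**Figure D5:**
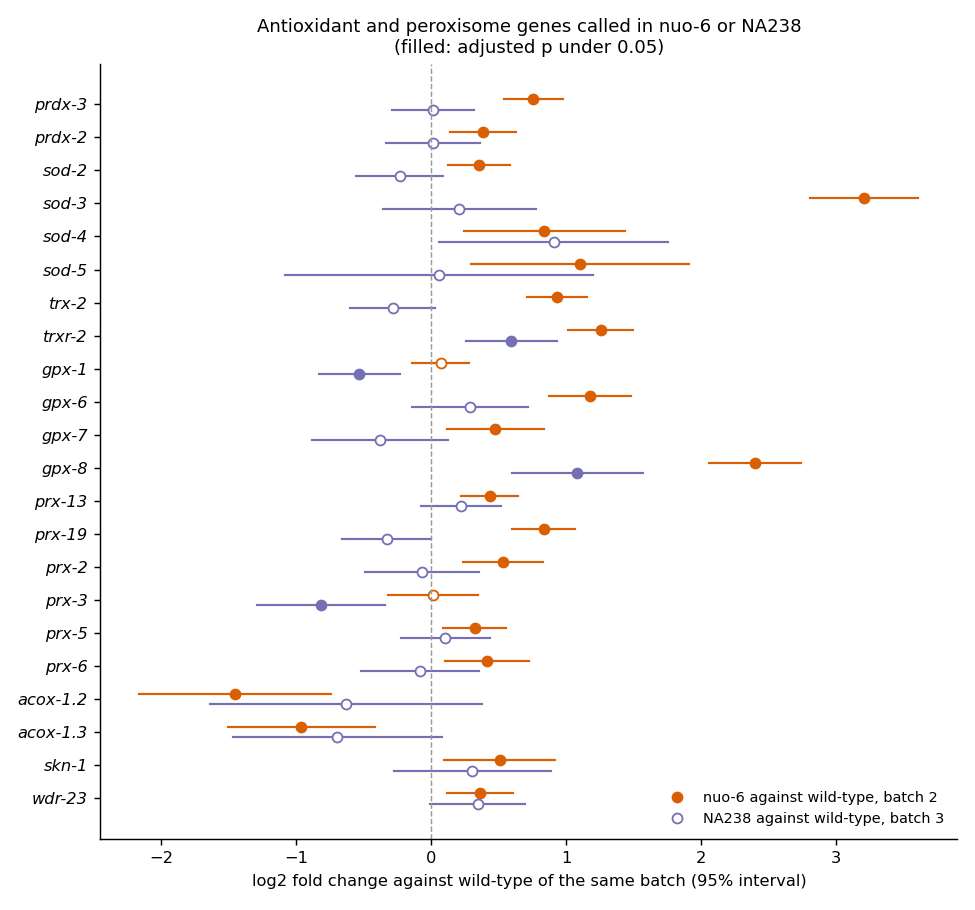
Log2 fold changes with 95% intervals of *prdx-3*, *prdx-2* and the 20 other genes of hydrogen peroxide metabolism called in *nuo-6* or NA238, each against wild-type worms of its batch, with filled points where the limma adjusted p was under 0.05. *sod-3* lies at 3.21 in *nuo-6*, and *trxr-2* and *gpx-8* are filled in both strains.

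The 6 genes did not vary as a group. Over the 43 libraries, with each value taken relative to the wild-type mean of its batch, Pearson's r between members ran from -0.41 (*ctl-2* and *prdx-2*) to 0.59 (*ctl-2* and *ctl-3*), and these libraries share genotypes, batches and stages. The genes most like *prdx-3* in this measure were *ipgm-1*, a phosphoglycerate mutase (r = 0.94), *C41G7.9* (0.92) and *Y25C1A.13* (0.92). Those most like *prdx-2* were *F49C12.12* (0.86), *vha-17*, a subunit of the proton pump of acidic organelles (0.86), and *ril-1* (0.86), and those most like *prdx-6* were *Y71F9AR.4* (0.93), *K10B2.4* (0.88) and *lsm-5* (0.87). Among the catalases, *ctl-1* was most like *asm-2* (0.84), *C09D4.2* (0.77) and *nspc-13* (0.73), *ctl-2* most like *Y48A6B.9* (0.78), *hda-5*, a histone deacetylase (0.77), and *acox-1.6*, an acyl-CoA oxidase (0.76), and *ctl-3* most like *lea-1* (0.86), *T03F1.6* (0.81) and *T12D8.5* (0.80).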

How the data were processed

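The authors made stranded mRNA libraries, sequenced them, aligned the reads with STAR 2.5.2b to WBcel235 with an Ensembl annotation, counted reads per gene, and dropped 1 *atfs-1(et15)* and 1 *nuo-6;hif-1* replicate on the basis of principal components. The authors deposited CPM scaled by library size for 46739 genes and a filtered table of 13837 genes, whose values have the unit of a signal here because the authors multiplied each library's CPM by a constant, and the rule of their filter is not given in the sources used here. Whole reads were recovered from the deposited CPM (100% of values whole within 0.01 read) and used for alternatives, read limits and library likeness. Likeness was the chi-square of the counts of a pair of libraries over its degrees of freedom, for genes with at least 20 reads in the pair.

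Log2 of the normalized CPM plus 0.5 was fitted with limma 3.58.1 (trend and empirical Bayes, R 4.3.3) in all 43 libraries, with a mean for each of the 11 combinations of genotype and batch and 32 residual degrees of freedom. p-values were adjusted over all 13837 genes by the Benjamini-Hochberg method, and an adjusted p under 0.05 was called. Fold changes on this scale understate those of low genes such as *ctl-1*. Positions of genes were read from a newer Ensembl release for WBcel235.

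The 6 genes, the lists and the tests were chosen with earlier results of these data known. The named genes are the 6 members, for each the 3 genes with the highest Pearson r over the 43 libraries, and genes of 7 fixed lists by name where called in *nuo-6* or NA238. Genes named outside this rule are said to be so. Alternatives were pseudocounts of 0.1 and 2 CPM, an additive batch term, no filter, library size as the only scaling, a minimum mean of 5 CPM, replicate labels as a block, a fit of only the groups compared, edgeR 4.0.16, DESeq2 1.42.0, a covariate for stage, the main component of 57 molting, sperm, oocyte and yolk genes (76.4% of their variance within wild-type groups), an adjusted p under 0.01, each batch of the deletion alone, and each library left out in turn. A fit without the batch 1 deletion libraries, and leaving out libraries for the genes of the lists, were chosen after seeing the data.

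Replicate labels recur across genotypes. Deviations from group means had a correlation above 0.1 for every label (0.446 to 0.693) in the wild-type and *atfs-1* deletion groups of batch 3, and in no other pair of groups that had 3 or more labels in common.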

Additional observations from a re-analysis of the deposited data

Results flagged for a closer look

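In groups of 4 to 10 libraries, a library was singled out where its gap to the nearest other exceeded the 95% critical value of Dixon's test. This gave 7 such values among the 6 genes, and chance gives about 1 in 20 groups tested. In *nuo-6*, replicate 2 was apart for *ctl-1* (8.91 normalized CPM, others 1.74 to 3.15), *ctl-2* (209, others 45.6 to 90.6) and *ctl-3* (11.1, others 4.97 to 7.11). The same library had the lowest yolk sum of its group, and the part of that in these levels was not tested. *nuo-6* replicate 3 was low for *prdx-6* (15.9, others 22.7 to 25.6) and had the highest yolk sum (92192). *atfs-1(et15)* replicate 5 was high for *ctl-2* (137, others 100 to 107). Wild-type replicate 7 was high for *prdx-2* (753, others 464 to 536) and low for *prdx-6* (23.2, others 27.4 to 29.5). It also had the highest molting sum of its group (4392, others 390 to 1464).

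The effect of *nuo-6* on *prdx-3* was called different between backgrounds, beside 9.34% of all genes. In the *atfs-1* deletion background minus the wild-type background it was -0.62 on the log2 scale (adjusted p = 0.0278 from limma). The call was lost with library size as the only scaling and at an adjusted p under 0.01. It was also lost without NA238 replicate b or bl or without deletion replicate bl or r. The backgrounds were sequenced in different batches, and the test rests on reading NA238 as the double mutant. NA238 libraries were above the deletion libraries in 3 of 3, by 0.14 on average, a difference that was not called. *nuo-6* libraries were above the wild-type libraries of their batch in 6 of 6. Of all genes, 14.3% were called in NA238 against the deletion and 40.3% in *nuo-6* against wild-type.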

How the results depend on the processing

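Of 90 values (6 genes in 15 comparisons) 13 were called, and none of 2121 values under the alternatives turned the direction of a call. Outside the settings that leave out 1 library, 22 values lost a call and 20 gained one. The number of members called in *nuo-6* against wild-type (2) became 1 when only the groups compared were fitted and at an adjusted p under 0.01, and 4 with the stage index. For NA238 against wild-type (0) it was 1 when only the groups compared were fitted, and likewise 1 for NA238 against the deletion. For the deletion against wild-type (0) it was 2 when only the groups compared were fitted and 1 with the stage index (*prdx-6*, 0.33, adjusted p = 0.0235). For *et17* (1) it was 0 when only the groups compared were fitted and at an adjusted p under 0.01. For *nuo-6;hif-1* against wild-type (2) it was 0 when only the groups compared were fitted, and 1 with a pseudocount of 2 CPM, no filter, library size as the only scaling, a minimum mean of 5 CPM (which drops *ctl-1*), DESeq2, the stage index, an adjusted p under 0.01, and without the batch 1 deletion libraries (chosen after seeing the data). For *nuo-6;hif-1* against *hif-1* (1) it was 0 with only the groups compared, DESeq2 and an adjusted p under 0.01. *et15* against *et17* (1) gave 0 with a mean of at least 5 CPM. The *prdx-3* test of NA238 minus *nuo-6* gave 0 with library size as the only scaling, and that of the deletion background 0 there and at an adjusted p under 0.01. Leaving out each library in turn gave 0 to 1 for *et17*, 1 to 2 for *nuo-6;hif-1* against wild-type, 0 to 1 against *hif-1*, 0 to 1 for the deletion background, and 0 to 1 for *nuo-6;hif-1* minus *nuo-6* (*ctl-2*, 0.68, adjusted p = 0.0416 without *nuo-6* replicate 2). Counts over all genes moved by over 1.5 times in 50 of 194 cases. The deletion count went from 1707 to 26 with batch 3 alone, 4397 with batch 1 alone, 6114 with the stage index and 5425 with only the groups compared. With the stage index the share called went from 29.5% to 0.723% for *nuo-6;hif-1* minus *nuo-6* and from 29.7% to 0.86% for the *hif-1* background, and the count from 164 to 3180 for the deletion between batches, 7182 to 815 for *nuo-6;hif-1* against *hif-1*, 7751 to 1777 against wild-type, 1581 to 280 for *et15* against *et17* and 4602 to 2009 in *et15*. With only the groups compared NA238 went from 2374 to 4380 and NA238 against the deletion from 1976 to 5303. The cause was not tested.

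With replicate labels as a block, the members called were 1 in NA238 (*ctl-3*, 0.58, adjusted p = 0.0142), 2 in *et17*, 4 in *nuo-6;hif-1* against wild-type, 3 against *hif-1* and 3 for *et15* against *et17*. The labels pair libraries only for wild-type and deletion of batch 3, where the block called none of the 6 and 50 genes in all in place of 26. Other groups share only the label. Among them is the deletion of batch 1, where the block called *prdx-2* (0.29, adjusted p = 0.0335 from limma) and 5366 genes in all in place of 4397. Library size as the only scaling moved the median of all genes by 0.13 in NA238, 0.11 in *et15* and 0.11 in *et17*, and the share of higher calls from 64.8% to 85.0%, 50.8% to 67.6% and 69.8% to 88.6%. In *nuo-6* that share went from 55.5% to 44.4%, in the deletion from 34.0% to 16.04% and in NA238 against the deletion from 56.5% to 86.2%. Depth limits *ctl-1* most, with 30 to 246 reads per library outside *et15*.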
